A study of Mus musculus with 8 samples.

Results

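The 8 genes described here encode cytokines, or subunits of cytokines, with which dendritic cells instruct T cells: Il6, Il10, Il12a, Il12b, Il15, Il23a, Il27 and Ebi3. They were chosen by symbol, 8 of the 55880 genes in the deposited expression table, and each symbol stood on 1 row. RNA sequencing compared 2 groups of mouse dendritic cells, which present antigen to T cells and were derived here from bone marrow. Both groups came from male wild-type C57BL/6 mice, 6 weeks old, and were cultured for 6 days with 10 ng/mL recombinant interleukin-4 and 20 ng/mL GM-CSF, a growth factor for myeloid cells. LMF cells (n = 4 libraries) were then kept with ITRs for 24 h and given a low-frequency magnetic field, the treatment that the name LMF stands for. Control cells (n = 4 libraries) were untreated, per the treatment protocol. The treatment entry of the sample records is the same for all 8 libraries, so the groups rest on the sample titles alone. The name ITR is not spelled out in the labels, although the title mentions a magnetic torque-regulator inside cells. RNA was collected 6 h after treatment. The effects of the ITRs, of the field and of mechanical force cannot be told apart in this comparison, and a group given magnetic rod-shaped micromotors that the series names was not analysed here.

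As background, interleukin-12, interleukin-23, interleukin-27 and interleukin-35 are heterodimers that share subunits. Il12b encodes the beta chain of interleukin-12 and interleukin-23, and pairs with the alpha chain from Il12a or Il23a. Ebi3 encodes the beta chain of interleukin-27 and interleukin-35, and pairs with the alpha chain from Il27 or Il12a. Interleukin-12 directs T cells towards the type 1 helper fate and interferon-gamma production, interleukin-23 sustains type 17 helper cells, and interleukin-6 promotes their formation together with TGF-beta. Interleukin-27 and interleukin-10 can restrain inflammation, and interleukin-15 maintains natural killer cells and memory CD8 T cells. In dendritic cells, most of these genes are transcribed on activation through pattern recognition receptors or CD40.

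The libraries held 16592672 to 18532878 summed gene counts in LMF and 17309368 to 21585750 in Control. Nothing in the labels ties a library to its own mouse or culture. The p-values therefore rest on the spread among these libraries alone, and that spread may be technical. Of 8 dendritic cell markers 7 were tested, 5 rose (Itgax, Flt3, Zbtb46, Ccr7 and Fscn1), 1 fell (Cd74) and 1 did not pass (H2-Ab1), with a median log2 fold change of 0.35. Their summed level was 6180 to 7233 CPM in LMF libraries and 6141 to 6549 CPM in Control libraries. Itgax, Cd74, H2-Ab1 and Ccr7 averaged 227, 3086, 962 and 1405 CPM in LMF and 168, 3335, 1012 and 1182 CPM in Control. Cd209a averaged at most 0.0852 CPM in either group. CPM, a gene's count scaled to its library's size, are given after TMM scaling, a correction for library composition. Of 9 macrophage markers 7 fell, none rose and 2 did not pass. Their summed level was 4028 to 4201 CPM in LMF libraries and 5934 to 6653 CPM in Control libraries, with none at 0. Apoe alone averaged 1302 CPM in LMF and 3162 CPM in Control. The 2 that did not pass, Csf1r and Adgre1, averaged 1793 and 400 CPM in LMF and 1819 and 387 CPM in Control. Most tested dendritic cell markers thus rose and most macrophage markers fell, and their part in the results below, receptors included, was not tested. In such bulk samples, fewer cells of a type and less RNA per cell cannot be told apart.

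Of the cytokine genes, 3 rose in LMF and 1 fell. Both chains of interleukin-12 rose, Il12a 1.9-fold and Il12b 1.38-fold, as did Il6, 1.89-fold. Il15 fell by 17.1%. Both interleukin-27 genes, Il27 and Ebi3, did not pass the test, and Il10 and Il23a had too few counts to be tested. The edgeR quasi-likelihood test was fitted to all 14074 genes with enough counts, with a Benjamini-Hochberg adjusted p under 0.05 as the threshold. It called 34.4% of those genes, 17.5% higher and 16.9% lower in LMF. These shares are the background for the 4 calls among 6 tested cytokine genes and for every other gene and marker list given here. The median log2 fold change of the 6 was 0.29, beside -0.00 for all tested genes. In 4 of the 6 the LMF libraries did not overlap the Control libraries, which held for 31.8% of all tested genes. In 3 of them LMF lay above Control, as for 16.1% of all tested genes, and in 1 below, as for 15.7%.

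**Figure D1:**
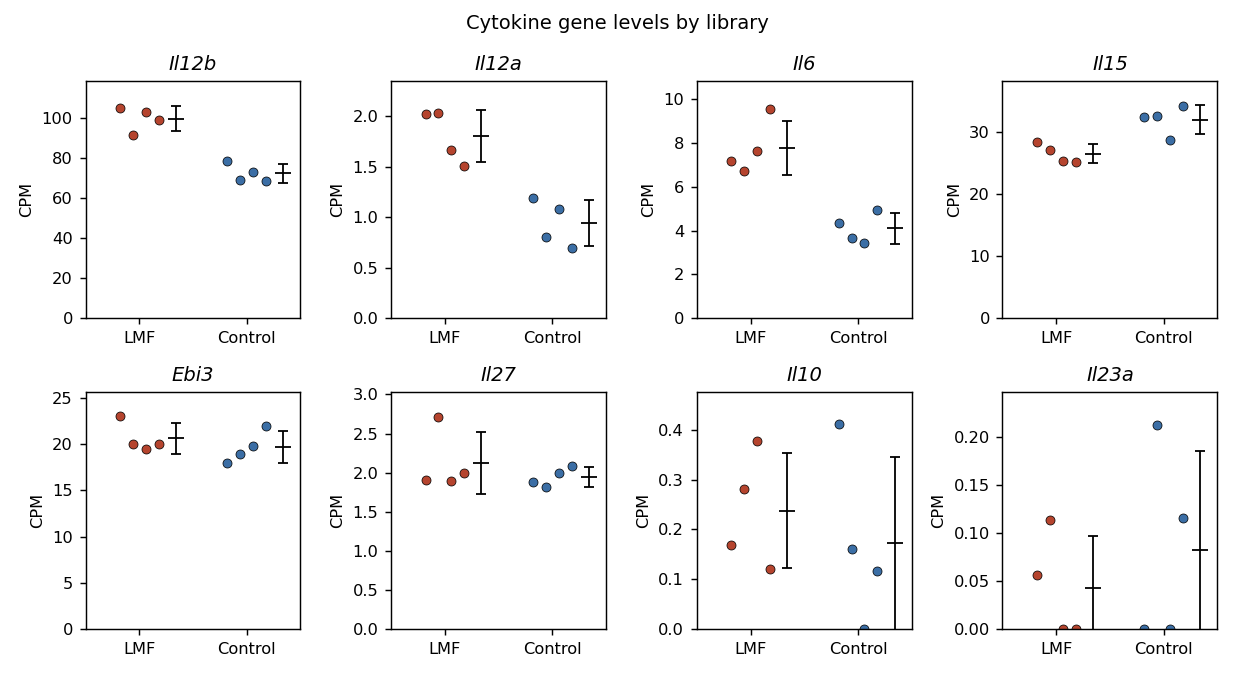
Level of each cytokine gene in CPM (y axis, linear, from 0) in the 4 LMF libraries (left) and the 4 Control libraries (right). Each point is 1 library, and the bar beside each group is mean ± SD. The LMF points lie above all Control points for Il12b, Il12a and Il6 and below them for Il15, and the groups overlap for Ebi3, Il27, Il10 and Il23a.

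Il12b, the shared beta chain of interleukin-12 and interleukin-23, was the most abundant of the 8. Its level was 105, 91.2, 103 and 99.1 CPM in the LMF libraries, against 78.4, 69.2, 72.7 and 68.5 CPM in the Control libraries. Every LMF library was above every Control library, and the spread within each group was small. The means were 99.5 ± 6.08 CPM in LMF and 72.2 ± 4.52 CPM in Control (SD, n = 4 each). The log2 fold change was 0.46 ± 0.05 (SE), with an edgeR adjusted p of 6.38e-09. The 95% interval ran from 0.35 to 0.57. Il12b alone made up 51.6% to 64.5% of the summed CPM of the 8 genes in a library.

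Il12a, the alpha chain that completes interleukin-12, was present at a far lower level. Raw counts were 36, 36, 31 and 25 in LMF libraries and 26, 15, 20 and 12 in Control libraries. After scaling these were 2.02, 2.03, 1.67 and 1.51 CPM in LMF, against 1.19, 0.8, 1.08 and 0.698 CPM in Control. The groups did not overlap in CPM, although the raw counts did, and Control replicate 1 was the deepest library. The log2 fold change was 0.92 ± 0.30 (edgeR adjusted p = 0.0165), with a 95% interval of 0.31 to 1.54. The call was lost without Control replicate 2 (adjusted p = 0.0519) and without Control replicate 4 (adjusted p = 0.0588).

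Il6, the cytokine that favours type 17 over regulatory T cells, had 128, 119, 141 and 158 counts in LMF libraries and 95, 69, 63 and 85 counts in Control libraries. In CPM it stood at 7.18, 6.71, 7.61 and 9.53 in LMF, against 4.36, 3.68, 3.41 and 4.94 in Control. No Control library reached the lowest LMF library, and LMF replicate 4 was the highest. The log2 fold change was 0.92 ± 0.16 (edgeR adjusted p = 1.42e-05). Ranked from the largest increase over the 14074 tested genes, Il12a was at place 320, Il6 at 324 and Il12b at 1207.

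Il15, whose product is presented to natural killer and CD8 T cells on the interleukin-15 receptor alpha chain, was the only tested member that fell. Its level was 28.5, 27.2, 25.4 and 25.2 CPM in LMF libraries, against 32.5, 32.7, 28.8 and 34.2 CPM in Control libraries. The groups came close, since LMF replicate 1 lay just under Control replicate 3. The log2 fold change was -0.27 ± 0.07 (edgeR adjusted p = 0.00399). It stayed called under every alternative setting tried, with adjusted p of 0.00127 to 0.0196.

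Ebi3, the beta chain of interleukin-27, was measured at 23.1, 20, 19.5 and 20 CPM in LMF libraries and at 18, 18.9, 19.8 and 22 CPM in Control libraries. The groups overlapped widely. The log2 fold change was 0.07 ± 0.09 (edgeR adjusted p = 0.59) with a 95% interval of -0.11 to 0.25. A change beyond 0.927-fold or 1.19-fold therefore lay outside the interval. Il27, the alpha chain, was at 1.91, 2.71, 1.89 and 1.99 CPM in LMF, against 1.88, 1.81, 2 and 2.09 CPM in Control. Only LMF replicate 2 stood above the Control range. The log2 fold change was 0.13 ± 0.25 (edgeR adjusted p = 0.741), and its 95% interval of -0.37 to 0.63 reached a 1.54-fold increase. Il27 overlaps Apobr by 103 bases and Ebi3 overlaps Gm16712 by 2252 bases on the opposite strand. The labels do not say whether counting used strand, so reads in the overlaps may belong to either gene. Apobr averaged 109 CPM in LMF and 101 CPM in Control, far above Il27. Gm16712 averaged 8.04 CPM in LMF and 6.54 CPM in Control. How much of the Il27 and Ebi3 counts came from these genes was not tested.

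Il10, an anti-inflammatory cytokine, and Il23a, the alpha chain of interleukin-23, were close to the limit of detection. Il10 had 3, 5, 7 and 2 counts in LMF libraries and 9, 3, 0 and 2 counts in Control libraries. Summed over a group, it had 0.24 CPM without TMM scaling in LMF (95% exact Poisson interval 0.14 to 0.384) and 0.184 in Control (0.101 to 0.309). Il23a had 1, 2, 0 and 0 counts in LMF libraries and 0, 4, 0 and 2 counts in Control libraries. That is 0.0423 CPM, again without TMM scaling, in LMF (0.00872 to 0.124) and 0.0788 in Control (0.0289 to 0.172). A count of 0 allows up to 3 counts, or 0.139 to 0.181 CPM depending on the library, and these intervals cover counting error only. No difference was detectable at this depth (exact two-sided permutation test over libraries, p = 0.571 for Il10 and p = 0.543 for Il23a, n = 4 each). The messenger RNA for the beta chain shared with interleukin-23 was thus abundant, while that for its specific alpha chain had at most 4 counts in any library.

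Levels of different genes were compared per length, on the authors' FPKM. In LMF the order was Il12b at 50.4 ± 3.41, Ebi3 at 17.8 ± 1.5, Il15 at 11.7 ± 0.685, Il6 at 3.18 ± 0.52, Il27 at 2.07 ± 0.364, Il12a at 1.06 ± 0.148, Il10 at 0.18 ± 0.0878 and Il23a at 0.0186 ± 0.0237 FPKM (SD, n = 4). No neighbours in that order overlapped. In Control the order was Il12b at 36.8 ± 2.55, Ebi3 at 17.1 ± 1.4, Il15 at 14.2 ± 0.988, Il27 at 1.91 ± 0.115, Il6 at 1.69 ± 0.281, Il12a at 0.556 ± 0.14, Il10 at 0.132 ± 0.134 and Il23a at 0.0366 ± 0.0458 FPKM. There Il27 overlapped Il6, and Il10 overlapped Il23a. Il6 thus ranked above Il27 in LMF and below it in Control. The lengths behind the deposited FPKM are shorter than those the table lists for 5 of the 8 genes: 1967 against 3805 bases for Il12b, 2261 against 7492 for Il15, 2428 against 5098 for Il6, 1701 against 6590 for Il12a and 2247 against 3084 for Il23a. With the listed lengths, LMF and Control averaged 26.1 and 19 FPKM for Il12b, 3.53 and 4.28 for Il15, 1.52 and 0.804 for Il6, and 0.273 and 0.143 for Il12a. Il6 then ranked below Il27 in both groups, and the other ranks were the same with either length.

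In the deposited table's coordinates Il12b (ENSMUSG00000004296) lies on chromosome 11 from 44290890 to 44304860, Il12a (ENSMUSG00000027776) on chromosome 3 from 68597977 to 68605880, and Il6 (ENSMUSG00000025746) on chromosome 5 from 30218112 to 30224979. Il15 (ENSMUSG00000031712) lies on chromosome 8 from 83058261 to 83129851 and Ebi3 (ENSMUSG00000003206) on chromosome 17 from 56259640 to 56264022. Il27 (ENSMUSG00000044701) lies on chromosome 7 from 126188182 to 126194113, Il10 (ENSMUSG00000016529) on chromosome 1 from 130947582 to 130952711 and Il23a (ENSMUSG00000025383) on chromosome 10 from 128132008 to 128134621. None of the 8 genes has the start and end that the mm10 annotation GENCODE M21 gives, although the submitters' notes name mm10, so the build of the table's coordinates is not known. Promoters were therefore read from RefSeq by symbol, on GRCm38.p6 and its own coordinates, for the 4 members with an entry: Il6, Il12a, Il12b and Ebi3. The windows run from 250 bases before to 50 after the annotated start. They are shown because 3 of these genes rose together and Ebi3 did not pass. Capitals mark any match on either strand to 5 fixed motifs, with all sequences 5′ to 3′ on the gene's strand. The windows are chr5:30012864-30013163 for Il6, chr3:68691174-68691473 for the second of 2 Il12a starts, chr11:44399813-44400112 for Il12b and chr17:55952373-55952672 for Ebi3, all on the plus strand.
Il6: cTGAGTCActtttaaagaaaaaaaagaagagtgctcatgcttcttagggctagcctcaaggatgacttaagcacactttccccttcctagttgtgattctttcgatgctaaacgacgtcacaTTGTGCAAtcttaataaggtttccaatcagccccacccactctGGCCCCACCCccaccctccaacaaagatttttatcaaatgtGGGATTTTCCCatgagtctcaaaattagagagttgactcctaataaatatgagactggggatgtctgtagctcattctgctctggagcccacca
Il12a: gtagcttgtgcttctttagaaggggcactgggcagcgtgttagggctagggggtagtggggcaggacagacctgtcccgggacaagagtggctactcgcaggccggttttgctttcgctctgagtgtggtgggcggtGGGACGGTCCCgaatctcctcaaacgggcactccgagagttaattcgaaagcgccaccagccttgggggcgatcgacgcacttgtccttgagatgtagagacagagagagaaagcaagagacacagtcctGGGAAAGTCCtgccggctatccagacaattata
Il12b: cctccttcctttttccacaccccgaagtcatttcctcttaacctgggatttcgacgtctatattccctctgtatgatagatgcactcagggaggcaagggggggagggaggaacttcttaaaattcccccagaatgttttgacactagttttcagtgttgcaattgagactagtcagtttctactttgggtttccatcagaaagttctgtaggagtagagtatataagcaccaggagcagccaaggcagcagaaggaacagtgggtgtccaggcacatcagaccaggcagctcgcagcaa
Ebi3: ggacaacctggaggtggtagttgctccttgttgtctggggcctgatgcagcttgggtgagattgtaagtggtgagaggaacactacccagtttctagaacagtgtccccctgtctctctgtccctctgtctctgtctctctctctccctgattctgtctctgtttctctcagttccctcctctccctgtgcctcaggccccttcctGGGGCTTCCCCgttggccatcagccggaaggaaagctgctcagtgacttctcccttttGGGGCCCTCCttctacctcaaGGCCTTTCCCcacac

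The motifs were kappaB as GGGNNNNNCC, AP-1 as TGANTCA, an interferon-stimulated element as GAAA repeated after any 2 bases, C/EBP as TTGCNNAA and GAS, the STAT-binding element, as TTCNNNGAA. Of all 32544 RefSeq windows of this length, 51% held the kappaB motif, 7.79% AP-1, 3.45% the interferon-stimulated element, 10.8% C/EBP and 8.33% GAS. Il6 held kappaB letters at -44 to -35 and, overlapping them on the other strand, at -43 to -34, besides a match at -85 to -76. It also held AP-1 at -249 to -243 and C/EBP at -128 to -121. The second Il12a window held overlapping kappaB matches from -113 to -103 and another at 18 to 27, and the first Il12a window held none of the motifs. Ebi3 held overlapping kappaB matches from -44 to -34 and others at 15 to 24 and 36 to 45. None of the 5 motifs was found in the Il12b window. A match here describes letters only and does not show a bound site. A missing match does not show that a site is absent, since variants of these letters were not searched.

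Because subunits pair, the ratio of their counts within a library was compared between groups, which needs no scaling factor. Of 8 ratios listed, 4 had a mean of at least 10 counts for both genes in each group. Il12b exceeded Il12a by a log2 count ratio of 5.68, 5.47, 5.92 and 6.01 in LMF libraries, against 6.01, 6.39, 6.04 and 6.56 in Control libraries. In linear terms there were 54.5 Il12b counts per Il12a count in LMF and 76 in Control (geometric means). The difference was -0.48 ± 0.18 (SE), and the groups did not overlap, though LMF replicate 4 and Control replicate 1 were equal to 2 decimals. The exact two-sided permutation p of 0.0286 is the smallest that 4 against 4 libraries can give, and adjusted over the 4 ratios it was 0.0571, above the threshold.

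Ebi3 over Il12a, the chains of interleukin-35, averaged a log2 ratio of 3.50 ± 0.17 in LMF and 4.37 ± 0.45 in Control (SD, n = 4 each). The groups did not overlap, and the difference was -0.87 ± 0.24 (exact permutation p = 0.0286, adjusted p = 0.0571). Ebi3 over Il27, the chains of interleukin-27, averaged 3.28 ± 0.30 in LMF and 3.32 ± 0.06 in Control (difference -0.04 ± 0.15, exact permutation p = 0.829, adjusted p = 0.829). Il12b over Il6 averaged 3.69 ± 0.22 in LMF and 4.14 ± 0.26 in Control, and the groups overlapped (difference -0.46 ± 0.17, exact permutation p = 0.0571, adjusted p = 0.0762). No ratio passed after adjustment. Il12b/Il12a and Ebi3/Il12a already had the smallest possible p. With the other ratios above it, adjustment put both over the threshold, however large their difference. The larger fold changes of Il12a and Il6 than of Il12b were thus not shown to differ from it. For Il12a this test could not have shown a difference, given the other ratios.

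**Figure D2:**
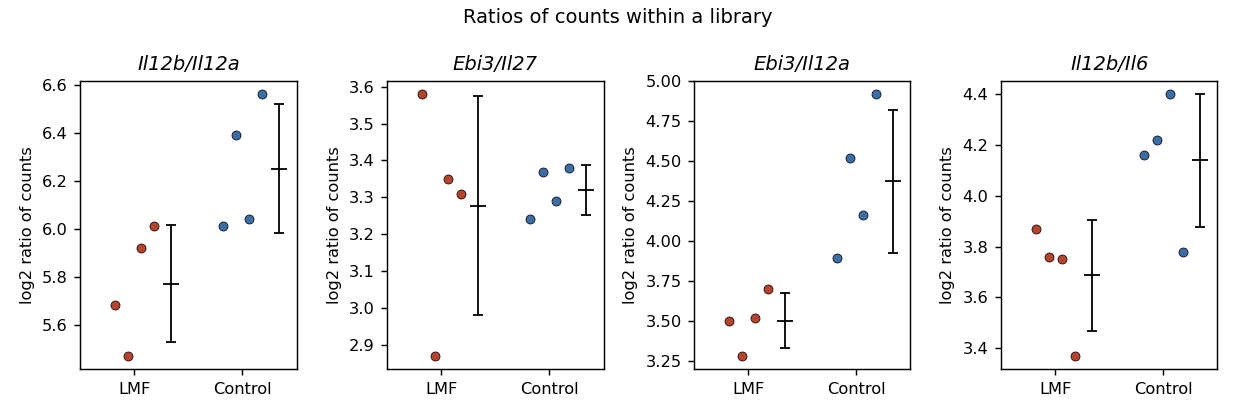
Log2 ratio of the counts of 2 genes within each library (y axis, not from 0) in the 4 LMF libraries (left) and the 4 Control libraries (right), with mean ± SD beside each group. Both ratios over Il12a lay lower in all LMF libraries than in any Control library, while Ebi3/Il27 and Il12b/Il6 overlapped.

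The receptors of these cytokines changed in both directions: of 11 genes 4 rose, 3 fell and 4 did not pass (median log2 fold change 0.11, beside -0.00 for all tested genes). Over all tested genes 17.5% rose and 16.9% fell, which is the background for this list and those that follow. Il6ra, the chain that binds interleukin-6, fell to 73.2, 67.1, 73.4 and 71.3 CPM in LMF, against 125, 128, 122 and 118 CPM in Control. The groups lay far apart, with a log2 fold change of -0.79 ± 0.05 (edgeR adjusted p = 4.11e-16). Il6st, the signalling chain shared by the interleukin-6 family, rose (161 ± 3.9 CPM in LMF, 138 ± 1.73 CPM in Control, log2 fold change 0.22 ± 0.04). In these bulk samples the ligand Il6 and its signalling chain were thus higher in LMF and its binding chain lower.

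Both chains of the interleukin-10 receptor fell. Il10ra averaged 198 ± 1.72 CPM in LMF and 247 ± 6.8 CPM in Control (log2 fold change -0.32 ± 0.04), and Il10rb 67.1 ± 1.61 CPM in LMF and 76.9 ± 4.04 CPM in Control (-0.20 ± 0.05). Il15ra, which presents interleukin-15, rose while Il15 itself fell: 40.4 ± 2.65 CPM in LMF and 33.6 ± 1.63 CPM in Control (0.27 ± 0.07). Il2rg, the gamma chain shared by interleukin-15 and several other receptors, also rose (0.38 ± 0.08). Il23r, specific to interleukin-23, rose to 5.11 ± 0.452 CPM in LMF, against 3.26 ± 0.812 CPM in Control (0.65 ± 0.19). The interleukin-12 receptor chains did not pass: Il12rb1 was at 0.07 ± 0.16 (edgeR adjusted p = 0.783) and Il12rb2, which overlaps Serbp1 on the opposite strand, at 0.11 ± 0.11 (adjusted p = 0.459). Il2rb at -0.14 ± 0.16 and Il27ra at 0.26 ± 0.22 did not pass either.

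**Figure D3:**
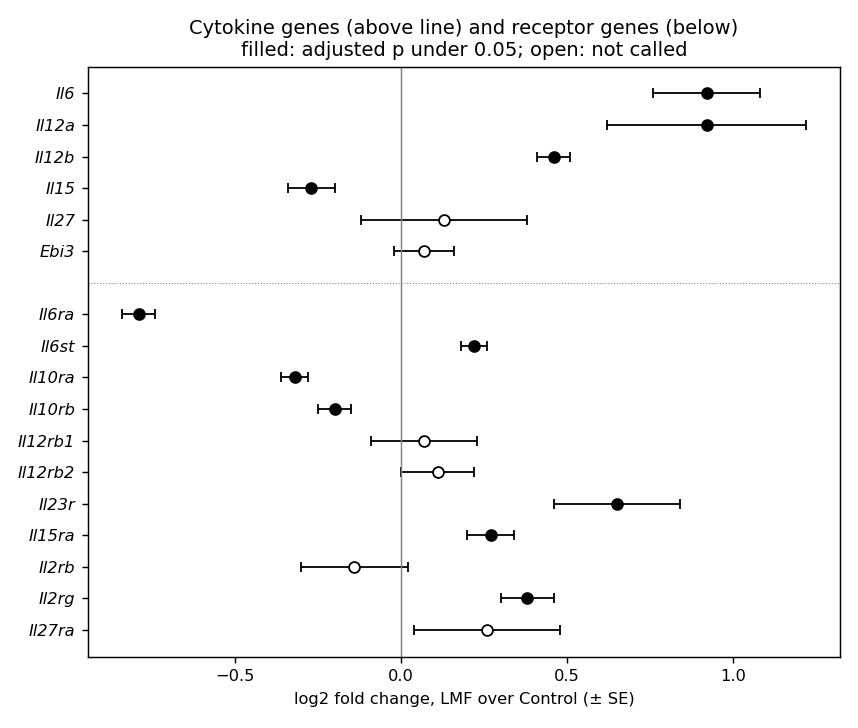
Log2 fold change of LMF over Control (x axis) with its SE for the 6 tested cytokine genes above the dotted line and the 11 receptor genes below it, from the edgeR fit (n = 4 each). Filled points were called and open points were not. Il6 and Il12a lie at 0.92, Il15 at -0.27 and Il6ra lowest at -0.79.

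Downstream of these receptors, JAK kinases phosphorylate STAT factors, and SOCS proteins feed back on them. Of 17 JAK-STAT and SOCS genes 14 rose, none fell and 3 did not pass, with a median log2 fold change of 0.20. Most changes were small, and Socs3, the feedback inhibitor of interleukin-6 signalling, stood apart at 36.6, 46.1, 36.2 and 40.4 CPM in LMF, against 12, 11.2, 15.7 and 13.7 CPM in Control (1.60 ± 0.10, edgeR adjusted p = 1.63e-14). Jak2 rose by 0.30 ± 0.04, Jak3 by 0.27 ± 0.06 and Stat4, which interleukin-12 activates in T cells, by 0.38 ± 0.08. Jak3 overlaps Insl3 on the same strand. Stat3, which interleukin-6 activates, did not pass (0.06 ± 0.04, adjusted p = 0.231).

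Among 25 transcription factors known to act on cytokine genes, 12 rose, 3 fell and 10 did not pass (median 0.15). Nfkbiz, a nuclear kappaB cofactor needed for Il6 and Il12b induction in mouse macrophages, rose to 52.6 ± 1.58 CPM in LMF, against 19 ± 0.991 CPM in Control (1.47 ± 0.07, edgeR adjusted p = 3.3e-19). Maf, a factor that promotes Il10 and represses Il12b in macrophages, fell to 38.6 ± 2.84 CPM in LMF, against 87.8 ± 2.25 CPM in Control (-1.19 ± 0.06, adjusted p = 1.16e-18). Maf is also expressed by macrophages, and 7 of their 9 listed markers fell here as given above. Hif1a, the hypoxia factor, which overlaps Gm15283 on the opposite strand, rose by 0.67 ± 0.04, and Atf3, a stress-induced repressor of Il6 and Il12b in mouse macrophages, by 0.80 ± 0.05. The lineage factors Irf4, Irf8, Batf3 and Spi1 were not among those called.

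Messenger RNA of some of these cytokines is short-lived. Of 10 regulators of its decay and stability 3 rose, 3 fell and 4 did not pass (median 0.06). Those that rose were Zc3h12a, the nuclease Regnase that degrades Il6 and Il12b transcripts (0.58 ± 0.06), Zfp36, tristetraprolin (0.39 ± 0.04), and Dusp1, a MAP kinase phosphatase that limits transcript stability (1.17 ± 0.07). Dusp1 overlaps Ergic1 on the opposite strand. Zfp36l2, a relative of Zfp36, was among those that fell (-0.35 ± 0.04).

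Other cytokines and ligands that bear on T cell polarisation included genes with larger fold changes than any of the 8. Of 22 such genes 15 were tested, 9 rose, none fell and 6 did not pass (median 0.31). Tnf averaged 105 ± 11.5 CPM in LMF and 8.97 ± 1.1 CPM in Control (3.56 ± 0.09), Il1b was at 2.23 ± 0.08 and the interferon-induced chemokine Cxcl10 at 4.11 ± 0.16. Jag1, a Notch ligand, rose to 55.6 ± 4.36 CPM in LMF, against 15.3 ± 0.87 CPM in Control (1.87 ± 0.07, edgeR adjusted p = 4.87e-21). Among 12 further ligands of the interleukin-6 and interleukin-10 families 3 were tested. Lif rose by 0.71 ± 0.12 and Osm, oncostatin M, by 0.44 ± 0.09, and Clcf1 did not pass (0.10 ± 0.15, adjusted p = 0.642). The other 9, Il19, Il20, Il22 and Il24 among them, had too few counts.

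**Figure D4:**
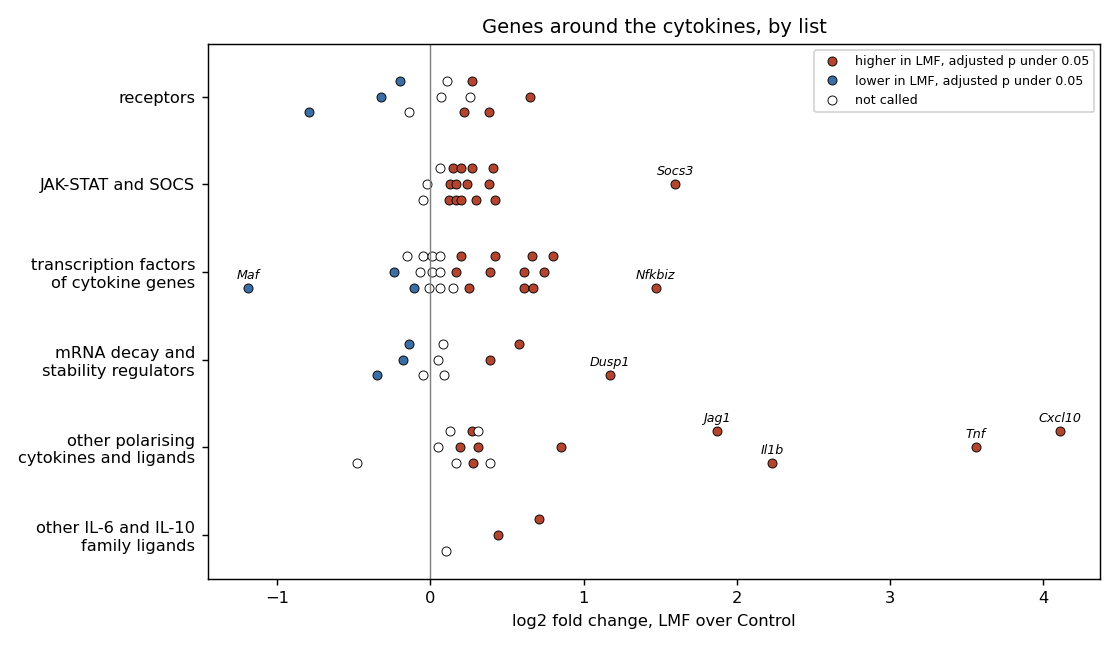
Log2 fold change of LMF over Control (x axis) for each tested gene of the 6 lists around the cytokines, 1 point per gene (n = 4 libraries per group). Red points were called higher in LMF, blue points lower, and open points were not called, and genes at 1 or beyond in either direction are named. The JAK-STAT list lies mostly to the right of 0, and Socs3 at 1.60 is set apart from its other members.

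For each called cytokine gene, the 2 genes whose profile over the 8 libraries was closest were found among 9994 candidates whose log2 CPM averaged 2 or more. The measure was the mean absolute difference of log2 CPM after centring each gene on its Control mean. Genes with a similar fold change lie close on this measure, and shared regulation was not tested. Pfkfb3, a glycolytic regulator, and Clic4 were closest to Il12b, both at 0.04. Etv5 and the calcium pump Atp2b4 were closest to Il6, at 0.11 and 0.12. Il12a was nearest to Gadd45a, a stress response gene, at 0.12 and to Rapgef5 at 0.15. Il15 was nearest to Mrpl30 and Mat2b, both at 0.03.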

How the data were processed

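RNA was extracted with Trizol, polyadenylated RNA was captured and libraries were built with a TIANSeq kit, per the labels' protocols. The submitters' processing notes list Trimmomatic, HISAT2 2.0.5, HTSeq, DESeq2 and mm10 without saying what each did. The authors deposited raw counts per gene beside FPKM values of their own, and every column of values was mapped to a library by its title code.

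The counts were tested with edgeR 4.0.16 (robust quasi-likelihood fit on group alone, R 4.3.3) after filterByExpr and TMM scaling. The SE was taken as the size of the log2 fold change divided by the root of its F statistic. The common biological coefficient of variation was 0.0661. Values with ± after a log2 fold change are SE, and those after CPM or FPKM are SD. The same script was checked on simulated counts. Ratios used a pseudocount of 0.5 and SciPy 1.17.1. Per library, depth was 16592672 to 21585750 counts. Chi-square per degree of freedom between libraries was 3.5 to 7.8 within groups and 26.6 to 35.2 across them, and all 8 libraries were counted as separate.

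The members, lists and tests were chosen with earlier results of these data known. Named were the 8 members, all their receptors, the 4 genes with the smallest p of each other list, and the likeness genes. Genes named besides these are given only as examples of what did not pass, as markers or as untested genes. Alternatives were scaling by DESeq2 1.42.0, by upper quartile or by library size, 2 other filters, the DESeq2 test, limma-voom (limma 3.58.1), a replicate block, limma-trend on FPKM in log2 with a pseudocount of 1 or 0.1, and leaving out each library. The marker lists for neutrophils, mast cells and basophils, T and NK cells, and B cells are given in the closing section.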

Additional observations from a re-analysis of the deposited data

Results flagged for a closer look

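A Dixon gap test, without the likeness genes, was run on 80 groups of 4 libraries. These covered the tested cytokine genes, their receptors, the genes named from the other lists and the ratios. The test picked out 4 groups in which a single library lay away from the rest, and chance gives about 1 in 20, or 4 here. For Il27 this was LMF replicate 2 with 2.71 CPM, where the remaining LMF libraries had 1.89 to 1.99 CPM. For Ebi3 it was LMF replicate 1 with 23.1 CPM, where the rest had 19.5 to 20 CPM. Il10ra reached 237 CPM in Control replicate 4, and the remaining Control libraries held 249 to 251 CPM. Atf3 reached 183 CPM in LMF replicate 1, and the rest held 209 to 213 CPM.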

How the results depend on the processing

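Of 974 recomputed values over 57 results, 967 kept direction and call or, for counts of genes, stayed within 1.5 times the reported count. Among these, the ratios without 1 library had no test. They counted as kept if the sign held and the shift stayed under the SD within groups. Il12a lost its call without Control replicate 2 (0.85, adjusted p = 0.0519) and without Control replicate 4 (0.81, adjusted p = 0.0588), which left 2 cytokine genes called higher in place of 3. Over all fits without 1 library, its log2 fold change was 0.81 to 1.06, that of Il6 0.80 to 1.01, that of Il12b 0.43 to 0.50 and that of Il15 -0.32 to -0.24. The sign turned for uncalled genes in 4 such fits: Il27 without LMF replicate 2 (-0.01, range -0.01 to 0.18), Il12rb1 without Control replicate 1 (-0.01) and without Control replicate 2 (-0.02; range -0.02 to 0.21), and Clcf1 without LMF replicate 3 (-0.01, range -0.01 to 0.20). On log2(FPKM + 1), which understates changes of low genes, Il6 was at 0.64 and Il12a at 0.41. All called genes ranged from 4307 to 5047 without 1 library. The labels do not say whether same-numbered libraries are pairs. Deviations of same-numbered libraries correlated at -0.0129 to 0.0284, and those of differently numbered libraries at -0.0428 to 0.0457. Such low correlations do not show that the libraries were unpaired. With the replicate number as a block 4774 genes and the same count of members were called, 3 higher and 1 lower. For the ratios the block gave p of 0.125 at the smallest, the least that 4 pairs allow. No ratio was called, so the block could not change a call there, yet these values count among the 967. The difference in the Ebi3/Il27 log2 ratio, not called, turned to 0.09 without LMF replicate 2 (range -0.14 to 0.09). Few counts kept Il10 and Il23a from being tested and widen the intervals of Il12a and Il27.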

Other observations

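Markers of other cell types in the cultures were also measured. Their calls stand beside 17.5% higher and 16.9% lower over all tested genes. Of 8 neutrophil markers 4 rose (S100a8, S100a9, Mpo and Elane), 1 fell (Ly6g) and 3 did not pass (Camp, Ltf and Cxcr2). The summed levels of this list were 1178 to 1341 CPM in LMF and 1061 to 1088 CPM in Control. Of 6 mast cell and basophil markers 2 rose, Kit and Cpa3, with summed levels of 134 to 147 CPM in LMF and 111 to 127 CPM in Control. None of 5 tested T and NK cell markers passed edgeR, and their list summed to 7.66 to 11.5 CPM in LMF and 8 to 10.4 CPM in Control. Of 5 B cell markers 1 fell, Ighm, with summed levels of 43.2 to 50.4 CPM in LMF and 52.2 to 56.9 CPM in Control. The part of these cells in the cytokine results was not tested.

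Ifnb1, the interferon-beta gene, had too few counts to be tested and was picked out after its values were seen. It had 5, 3, 2 and 4 counts in LMF libraries and 0, 1, 1 and 0 counts in Control libraries. Il2, the T cell growth factor, had no count in any library.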
